A study of Drosophila melanogaster with 8 samples.

Results

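Adding guide RNAs for Snail to guide RNAs for Twist was examined by setting 2 libraries of Drosophila S2R+ cells that carried both guide pools against 2 libraries that carried the Twist pool alone. These were 4 of the 8 libraries of the study, taken by their labels, and the comparison covered every gene that passed a filter on low counts, 7953 of the 14161 genes in the tables. S2R+ is an established line with features of hemocytes, the blood cells of the fly. All cells, controls included, were transfected with Actin:dCas9-VPR, a Cas9 that binds DNA without cutting it, fused to the VPR transcriptional activator. By their labels, the groups differed in the guides alone. The Twist group received 5 pooled guides aimed upstream of twi, the Snail group 5 guides aimed upstream of sna, and the combined group received both pools. The control guides are labelled per sample as aimed at the promoter of a luciferase reporter, and elsewhere in the labels as non-targeting. The labels give neither the share of cells that took up the plasmids nor whether the amount of each guide was held constant when the pools were combined.

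Twist is a basic helix-loop-helix activator and Snail a zinc-finger factor that acts mainly as a repressor. Both are made in the ventral cells of the early embryo, where Twist switches on genes of the mesoderm and, with Dorsal, switches on sna itself, while Snail keeps genes of the neighbouring neurectoderm off in the mesoderm. Because dCas9-VPR drives the endogenous genes, the comparison sets cells with guides for both genes against cells with guides for twi alone. The level of twi also differed between these groups, as given below. Changes that go with sna and changes that go with twi therefore cannot be told apart here.

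Total counts were 13141804 and 13351166 with Twist guides and 12219683 and 10926704 with both pools. The 4 libraries were not equally spaced. The variance of the difference between replicates, relative to counting alone, was 7.23 for the Twist pair and 3.81 for the pair with both pools. Between the groups it was 7.32 and 11.4 from Twist replicate 1 to the 2 combined libraries, but 22.2 and 26.8 from Twist replicate 2. Twist replicate 1 was about as near to one combined library as to its own replicate, and each main count is given with libraries left out. Of the hemocyte markers, srp, Pxn and crq were well covered in every library of the series (800 counts or more). Hml had 3 to 19 counts, and nimC1 and eater had 0 to 5, near 0. The summed hemocyte markers, scaled by the library total alone, stood at 405 to 422 per 1e+06 counts with Twist guides and 402 to 406 with both pools. Levels below are in CPM, read counts per 1e+06 with TMM normalisation.

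The gene aimed at by the added guides was switched on. sna (FBgn0003448) was read 0 and 1 times in the Twist libraries and had 1485 and 1320 counts in the combined libraries. The ratio of the groups was 3280 (95% counting interval 589 to 1.3e+05), and the adjusted p was 1.2e-13 in edgeR's quasi-likelihood test with Benjamini-Hochberg adjustment over the 7953 genes, as for every adjusted p below unless another fit is named. The level was 124 and 122 CPM with both pools, beside 97.2 and 102 CPM with Snail guides alone.

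twi itself fell. twi (FBgn0003900) had 345 and 384 counts in the Twist libraries and 164 and 137 counts in the combined libraries, or 26.3 and 28.2 CPM against 13.7 and 12.7 CPM. The groups did not overlap. The log2 fold change was -1.05 ± 0.11 (SE; adjusted p = 2e-04), a 2.07-fold lower level. Both Snail libraries and both control libraries had 0 counts of twi, so the combined cells remained above them. Fewer cells with active twi and less twi RNA per cell cannot be told apart in these bulk samples, and how much of each guide the cells received was not tested.

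In all, 710 genes (8.93% of those tested) passed an adjusted p of 0.05, of which 329 (4.14%) were higher and 381 (4.79%) lower with both pools. Most changes were small. The median log2 fold change was 0.41 among the genes called higher and -0.37 among those called lower, and 49 and 34 genes exceeded a 2-fold change. Groups that do not overlap are common with 2 libraries a side, and they were found for 58.7% of the tested genes (29.7% with both combined libraries above, 29% below). They included all 710 genes called, and the median over all tested genes was 0.0048.

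The number of calls depended strongly on single libraries. Leaving out Twist replicate 1 raised it to 1930, while leaving out Twist replicate 2, combined replicate 1 or combined replicate 2 gave 374, 165 and 40. Of the 710 genes, 25 were called under each of the 15 other settings tried, 14 of them higher and 11 lower. The 14 were sna, qsm, esg, pyr, Ggamma30A, CG8834, CG4301, vri, CG13868, CG2909, CG7837, lig3, CG5059 and CG3764. The 11 were twi, Mmp1, Sans, CG5599, Fuca, pyd3, CG3376, nvy, CG10232, btn and CG6231. A fit of all 8 libraries, whose spread takes in the more distant control pair, called 84 genes (1.05%), of which 40 (0.498%) were higher and 44 (0.548%) lower, and 83 were among the 710.

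**Figure D1:**
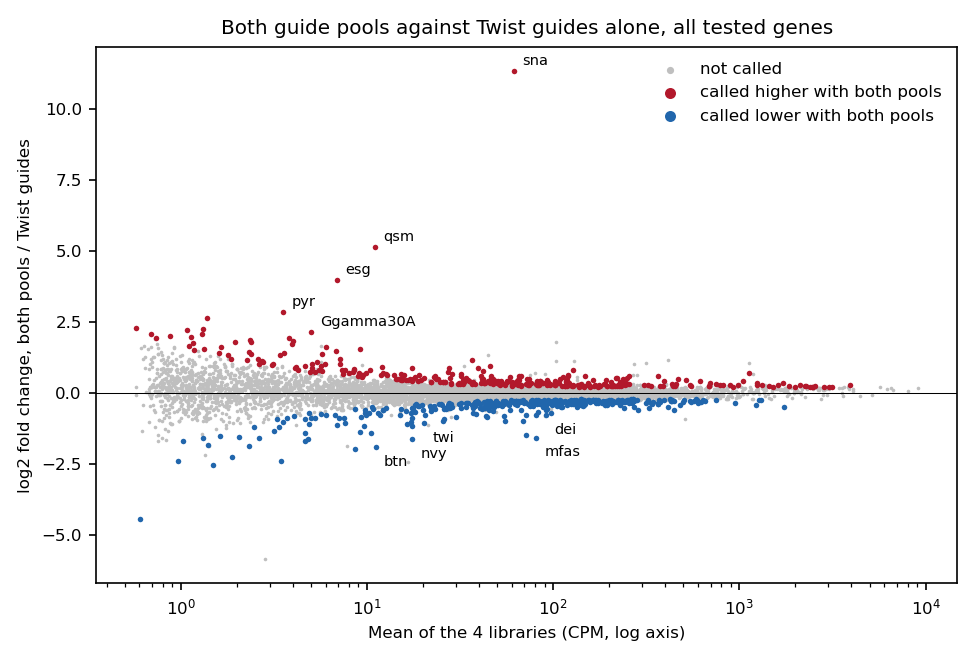
Log2 fold change between both pools and Twist guides (vertical axis) against the mean level over the 4 libraries in CPM (horizontal log axis), 1 point per tested gene, with 329 genes called higher in red and 381 called lower in blue. sna, qsm, esg and pyr stand above all other genes, and most called genes lie within a 2-fold change of 0.

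The largest rises after sna were in a secreted-protein gene, a Snail-family gene and a growth factor gene. qsm (FBgn0028622, listed under an older name in the deposited tables) encodes an extracellular zona pellucida domain protein that takes part in the light response of the circadian clock. It had 1.07 and 0.147 CPM with Twist guides and 22.1 and 21 CPM with both pools. The log2 fold change was 5.14 ± 0.32 (adjusted p = 8e-06), although the Twist value rests on 14 and 2 counts.

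esg (FBgn0287768) encodes Escargot, a zinc-finger factor of the Snail family that maintains stem cells and diploid progenitors. It rose from 0.61 and 1.03 CPM to 12.6 and 13.5 CPM, by 3.97 ± 0.26 on the log2 scale (adjusted p = 7.9e-07). Both combined libraries were far above both Twist libraries, which lay near 1 CPM. esg is the nearest tested gene to sna on one side, at 140.5 kb in the BDGP6.54 annotation of Ensembl. On the other side, lace, which encodes a subunit of serine palmitoyltransferase, lies 20.9 kb from sna and had 451 and 438 CPM with Twist guides and 433 and 415 CPM with both pools (log2 fold change -0.07 ± 0.06, adjusted p = 0.51).

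pyr (FBgn0033649) encodes Pyramus, one of the pair of FGF8-like ligands of the receptor Heartless, and in the embryo Snail keeps it off in the mesoderm. It stood at 0.61 and 1.1 CPM with Twist guides and 6.58 and 5.91 CPM with both pools. The groups were well apart, and the log2 fold change was 2.85 ± 0.31 (adjusted p = 2e-04). The gene for the other ligand, ths, had 2 to 15 counts over the 8 libraries and was not tested.

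Ggamma30A, which encodes a gamma subunit of heterotrimeric G proteins, went from 2.29 and 1.4 CPM to 8.33 and 8.13 CPM (log2 fold change 2.16 ± 0.25, adjusted p = 0.00036). CG8834 had 1.45 and 1.69 CPM with Twist guides and 5.75 and 6.28 CPM with both pools (1.93 ± 0.26, adjusted p = 0.0013). CG4301 had 1.75 and 1.76 CPM and then 6.92 and 5.54 CPM (1.82 ± 0.26, adjusted p = 0.0018). In each of these 3 genes both combined libraries lay well above both Twist libraries.

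The remaining 8 of the 15 largest rises were in genes at lower levels. Idgf4, an imaginal disc growth factor of the chitinase-like family, had 0.915 and 1.1 CPM with Twist guides and 3.83 and 3.6 CPM with both pools (1.87 ± 0.31, adjusted p = 0.0053). The clock gene tim had 0.686 and 0.22 CPM and then 2.58 and 1.76 CPM (2.25 ± 0.48, adjusted p = 0.016). The others were CG32372 (2.63), the mucin-related gene Mur29B (2.23), CG8335 (2.09), the NimA-like kinase gene niki (1.98), CG15314 (1.80) and CG11836 (1.80, all log2 fold changes). In the fit of 8 libraries tim, CG8335 and niki were not called (adjusted p 0.061 to 0.16). With DESeq2 all 15 of the largest rises were called. All 15 were called without Twist replicate 1. Without Twist replicate 2, tim, CG8335 and niki lost their calls (adjusted p 0.063 to 0.19), and without combined replicate 1 so did these 3 and Mur29B (0.054 to 0.12). Without combined replicate 2, all 8 of these lower genes lost theirs (0.06 to 0.39), while sna, qsm, esg, pyr, Ggamma30A, CG8834 and CG4301 kept theirs.

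**Figure D2:**
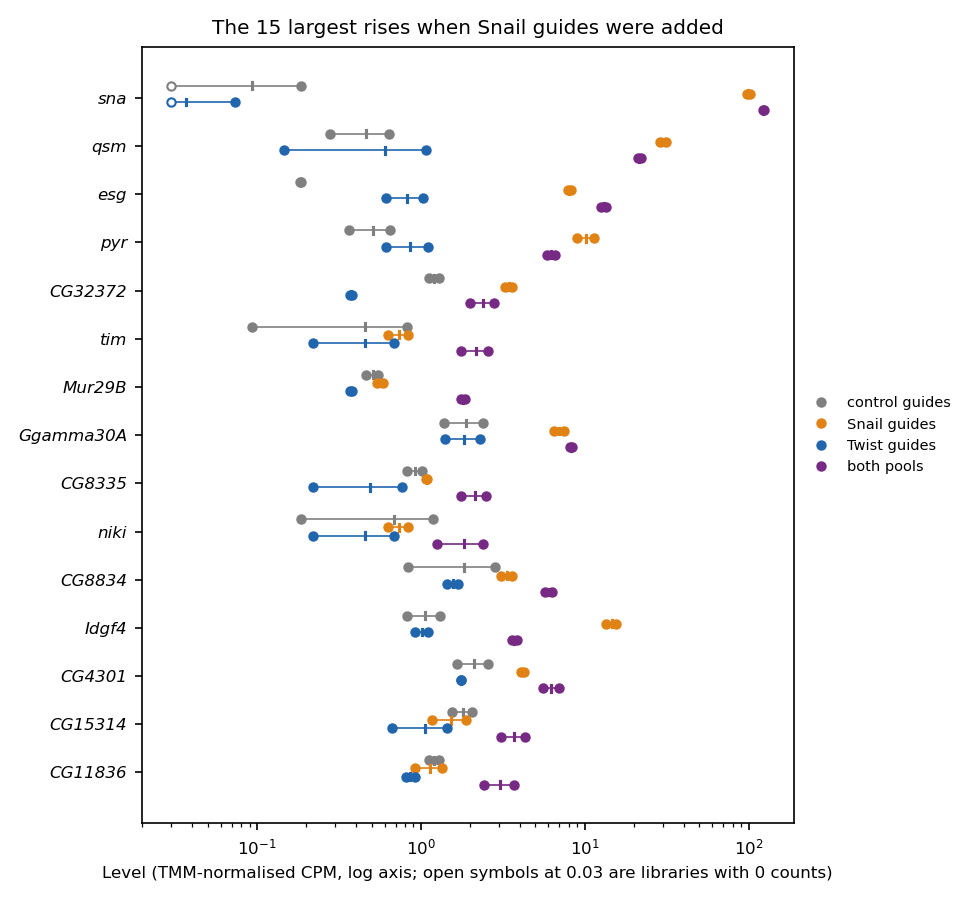
Level of the 15 genes with the largest rises (CPM, log axis) in each of the 8 libraries, with a tick at the mean of each pair and open symbols for libraries with 0 counts. In every gene both combined libraries (purple) lie to the right of both Twist libraries (blue), and Idgf4 is highest with Snail guides alone (orange).

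The largest falls included regulators that had been high with Twist guides. btn (FBgn0014949) encodes Buttonless, a homeodomain protein of mesodermal cells at the dorsal midline. It read 15.5 and 19.7 CPM with Twist guides and 5 and 4.34 CPM with both pools (log2 fold change -1.91 ± 0.18, adjusted p = 4e-05). nvy (FBgn0005636), the fly member of the ETO/MTG8 family of corepressors, read 26 and 27 CPM and then 10 and 7.02 CPM (-1.63 ± 0.14, adjusted p = 2.4e-05). In both genes the combined libraries lay between the Twist libraries and the control libraries, which were at 1.11 to 2.29 CPM.

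CG6231 went from 12.3 and 15.4 CPM to 4.33 and 2.68 CPM (-1.97 ± 0.22, adjusted p = 0.00021). CG10232 went from 5.87 and 8.45 CPM to 2.08 and 2.31 CPM (-1.71 ± 0.26, adjusted p = 0.0033). mfas, which encodes the secreted adhesion protein Midline fasciclin, went from 102 and 140 CPM to 44.7 and 37 CPM (-1.57 ± 0.19, adjusted p = 0.015). It was not called without a filter on low counts (0.08) or in the fit of 8 libraries (0.2). The groups of these 3 genes were apart, with both combined libraries well below the lower Twist library in each of them.

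The other 10 of the 15 largest falls had log2 fold changes from -1.55 to -2.53. They were CG16700, CG9416, the esterase gene alpha-Est1, CG13707, the integrin subunit gene betaInt-nu, CG3394, CG10877, ect, r-cup and CG5130. CG16700 stood at 1.45 and 3.67 CPM with Twist guides and at 0.5 and 0.37 CPM with both pools (-2.53 ± 0.56, adjusted p = 0.021). In the fit of 8 libraries, 6 of the 15 largest falls were not called (adjusted p 0.066 to 0.2). They were CG16700, CG3394, CG5130, betaInt-nu, mfas and r-cup. With DESeq2 CG5130 was not called (0.098). The 15 falls depended more on single libraries than the rises did. Without combined replicate 2, 11 of the 15 lost their calls (adjusted p 0.11 to 0.34), all but btn, nvy, CG6231 and CG10232. Without combined replicate 1, 9 were lost (0.061 to 0.21), and without Twist replicate 2, 5 were lost (0.09 to 0.38). Without Twist replicate 1, only CG3394 was lost (0.056).

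Some further falls were singled out after their values were seen. Among them, CG3376, Fuca and pyd3 were called in every setting tried, while Pu and CG15611 were not. CG3376 had 107 and 102 CPM with Twist guides and 41.7 and 33.8 CPM with both pools (-1.47 ± 0.09, adjusted p = 6.9e-07). Fuca, an alpha-L-fucosidase gene, fell by 1.15 ± 0.12 on the log2 scale, pyd3, of pyrimidine breakdown, by 1.38 ± 0.17, and Pu, which encodes GTP cyclohydrolase, by 1.05 ± 0.18. The replicates of each lay close together on either side. CG15611, below the 1 CPM minimum for naming, had 17 and 14 counts in the Twist libraries and 1 and 0 in the combined ones, a ratio of 26.5 (95% counting interval 4.41 to 1.08e+03).

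The genes most raised by Twist guides were then followed into the combined cells. Twist guides against control guides and both pools against Twist guides share the Twist libraries, so a gene that happened to read high in those libraries moves both values in opposite directions, and the 2 comparisons are given side by side only. Against control guides 66 genes (0.822%) were higher with Twist guides in the fit of 8 libraries, and of the 10 largest of these rises 6 were lower with both pools than with Twist guides, 4 were not called, and 0 were higher. Among all tested genes 4.79% were called lower.

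dei, which encodes Delilah, a helix-loop-helix factor of tendon cells, had 1.65 and 1.39 CPM in control libraries, 134 and 97.4 CPM with Twist guides and 64.4 and 69.5 CPM with both pools (-0.79 ± 0.14 between the last 2 groups, adjusted p = 0.024). PGRP-LB, an amidase that breaks down peptidoglycan, had 0.183 and 0.464, then 26.1 and 19.3, and then 12.2 and 12.3 CPM (-0.89 ± 0.15, adjusted p = 0.0053). Both genes lost part of their level with Snail guides added, and in both the combined libraries lay far above control.

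acj6, a POU-homeodomain gene, had 0 counts in both control libraries, 5.18 and 4.34 CPM with Twist guides and 2.67 and 1.94 CPM with both pools (-1.04 ± 0.27, adjusted p = 0.032). ect, with 0 counts in control libraries as well, had 4.12 and 3.82 CPM and then 1.33 and 1.29 CPM (-1.59 ± 0.29, adjusted p = 0.009). CG9416 had 3.43 and 8.23 CPM with Twist guides, a wide spread, and 1.25 and 0.924 CPM with both pools (-2.41 ± 0.48, adjusted p = 0.021). The sixth gene was nvy, described above.

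The remaining 4 did not pass. alphaTub85E, an alpha-tubulin gene, had 1.14 and 2.65 CPM and then 0.667 and 0.739 CPM (-1.43 ± 0.48, adjusted p = 0.078). CG15658 had 1.22 and 1.18 CPM and then 0.333 and 0.462 CPM (-1.58 ± 0.50, adjusted p = 0.063). CCKLR-17D3, a receptor for a cholecystokinin-like peptide, had 18.9 and 12.9 CPM and then 11.7 and 12.4 CPM (-0.41 ± 0.17, adjusted p = 0.15).

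htl, which encodes the FGF receptor Heartless of the mesoderm, stood apart from these genes in its values. It had 19.9 and 18.1 CPM with Twist guides and 19.9 and 16.9 CPM with both pools, and the groups overlapped (log2 fold change -0.05 ± 0.12, adjusted p = 0.85). Of the 6 genes called lower, 4 lost their calls without combined replicate 1 (acj6, ect, dei and CG9416, adjusted p 0.061 to 0.18). Without combined replicate 2 all but nvy did (0.088 to 0.31), and none did without either Twist library.

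**Figure D3:**
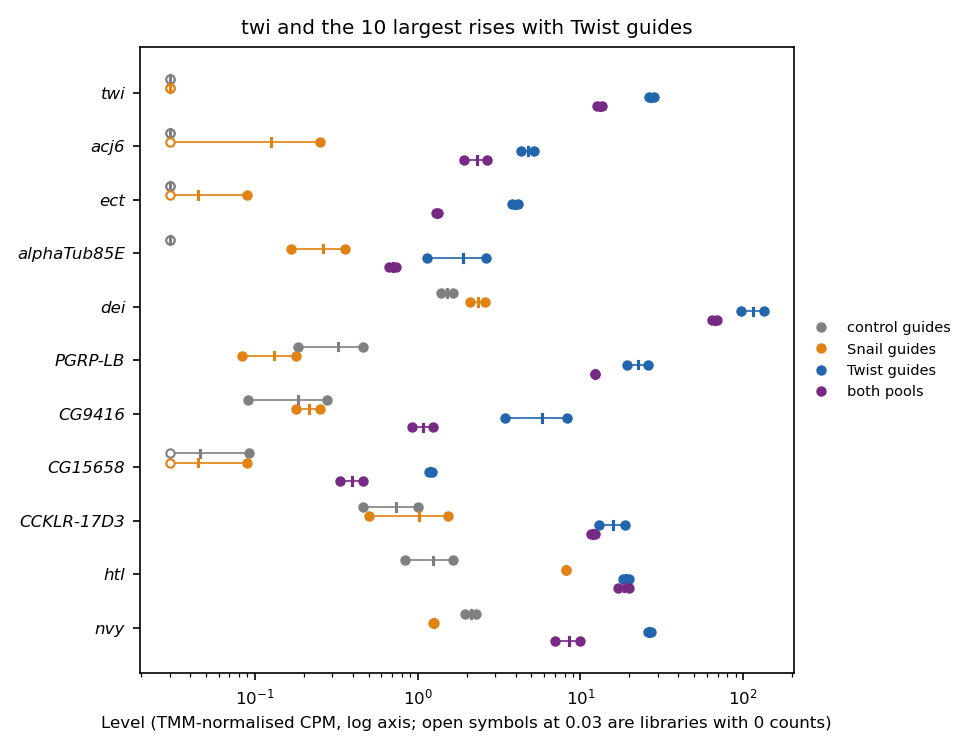
Level of twi and of the 10 genes with the largest rises under Twist guides against control guides (CPM, log axis) in each of the 8 libraries, with a tick at the mean of each pair and open symbols for 0 counts. For most of these genes the combined libraries (purple) lie below the Twist libraries (blue) and above the control libraries (grey), while the 2 groups overlap for htl.

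Snail guides were also given without Twist guides, and that pair of groups shares no library with the present one. The fit used for it takes its spread from all 8 libraries, however, so its calls also depend on the Twist and combined libraries. Against control guides, 26 genes (0.324%) were called with Snail guides in the fit of 8 libraries, 18 (0.224%) higher and 8 (0.0996%) lower. Of these, CG31235 was not tested here for low counts (3 and 4 with Twist guides, 12 and 8 with both pools). Of the other 17 that were higher with Snail guides, 8 were also higher here, 1 was lower and 8 were not called. Of the 8 that were lower, 4 were also lower here, 1 was higher and 3 were not called. The 12 genes called in the same direction were 48% of the 25 tested here and 1.69% of the 710. They include sna, at which the Snail guides were aimed in both settings. Of the 14 genes called in either direction in both settings, 8 were also called between both pools and Twist guides in the fit of 8 libraries. Over all tested genes, 4.14% were called higher here and 4.79% lower.

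The 8 genes higher in both settings were sna, qsm, esg, pyr, Idgf4, Ggamma30A, CG13928 and Tret1-2, a trehalose transporter gene. sna is described above, with at most 2 counts in either reference group. For the next 5 the log2 fold changes are given first without and then with Twist guides. For qsm they were 5.99 and 5.14, and for esg 5.36 and 3.97. For pyr they were 4.30 and 2.85, for Idgf4 3.76 and 1.87, and for Ggamma30A 1.88 and 2.16.

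For the 5 besides sna, the difference between the additions did not pass in the fit of 8 libraries (adjusted p of 0.094 for Idgf4 and 0.26 or more for the others), which does not show that they were equal. esg reached 12.6 and 13.5 CPM with both pools against 8.2 and 7.84 CPM with Snail guides alone. Idgf4 reached 3.83 and 3.6 CPM with both pools against 15.6 and 13.5 CPM with Snail guides alone.

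The 4 genes lower in both settings were tmod (tropomodulin, a cap of actin filament ends; -0.58 without and -0.25 with Twist guides), CG6805 (-0.59 and -0.41), CG33926 (-0.63 and -0.41) and CG8547 (-0.64 and -0.39). In the fit of 8 libraries none of these 4 was called between both pools and Twist guides (adjusted p 0.067 to 0.25). Of the genes higher in both settings, Tret1-2 was not called there either (0.088). The genes that rose with Snail guides alone and were not called here included if, the alpha-PS2 integrin subunit (1.36 and 0.02), and Ama, a secreted immunoglobulin-domain adhesion protein (1.28 and 0.59). They also included the glutathione S-transferase genes GstD3 (0.70 and 0.23) and GstD1 (0.54 and 0.11), as well as CG31808, CG5455, CG5895 and htl. Those that fell with Snail guides alone and were not called here were CG5118, Spn (spinophilin) and the cysteine protease gene Cp1, at -0.46 to -0.59 without and -0.02 to 0.03 with Twist guides.

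sano and CG3860 were called in opposite directions in the 2 settings. sano, which encodes a cytoplasmic protein of planar polarity, had 7.24 and 7.05 CPM in control libraries, 11.9 and 11.3 CPM with Snail guides, 49.6 and 50.2 CPM with Twist guides and 35.6 and 35.3 CPM with both pools. It was thus higher with Snail guides in place of control guides and lower with Snail guides on top of Twist guides. CG3860 had 49.7 and 57.8 CPM in control libraries, 34.1 and 38.9 CPM with Snail guides, 46.2 and 42.3 CPM with Twist guides and 56.4 and 55.7 CPM with both pools. Between both pools and Twist guides, CG3860 was not called with DESeq2 (adjusted p = 0.08) or in the fit of 8 libraries (0.12).

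The test of the difference between the additions called 14 genes in all (0.174% of 8029 tested), 8 (0.0996%) with a value above 0 and 6 (0.0747%) below. For sano the difference was -1.19 ± 0.15 on the log2 scale (adjusted p = 0.013) and for CG3860 0.90 ± 0.15 (adjusted p = 0.036). For htl, which rose from 1.65 and 0.835 CPM in control libraries to 8.11 and 8.18 CPM with Snail guides, it was -2.74 ± 0.31 (adjusted p = 0.0059). The counts of calls in these fits moved with single libraries, from 6 to 1443 for Snail guides against control guides and from 1 to 948 for the difference, highest in each case without control replicate 1. Of the 14 genes called in both settings, 9 lost the call between both pools and Twist guides without combined replicate 2 (adjusted p 0.06 to 0.33), all but sna, qsm, esg, pyr and Ggamma30A. Without combined replicate 1, 6 lost it (0.059 to 0.23), and without Twist replicate 2, 4 did (0.062 to 0.12).

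**Figure D4:**
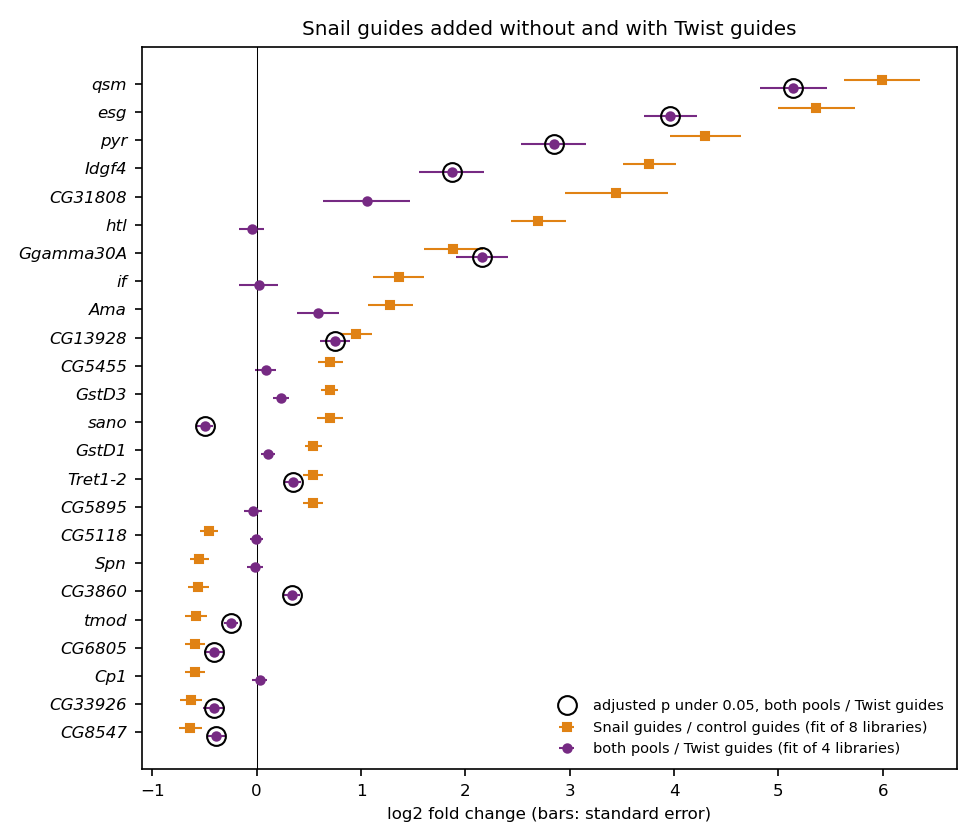
Log2 fold change (points) with its standard error (bars) when Snail guides replaced control guides (orange squares) and when Snail guides were added to Twist guides (purple circles), for the 24 genes besides sna called in the first comparison and tested in the second, with rings around those called in the second. qsm, esg, pyr, Idgf4 and Ggamma30A are high in both, while htl and if are near 0 when Twist guides are present, and sano and CG3860 lie on opposite sides of 0.

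Genes with known links to the 2 factors were described by list, beside the median of 0.0048 and the 8.93% called over all tested genes. An unadjusted p under 0.05 was common, at 2105 of the 7953 tested genes in either direction. List counts at that cut, here and below, are to be read beside that share. Of 15 mesoderm genes with known Twist input, 9 were tested and none was called by edgeR (0 higher and 2 lower at an unadjusted p under 0.05, 0 with DESeq2, 0 in the fit of 8 libraries, and 1 lower with a correction for transcript length). Their log2 fold changes ran from -0.21 to 0.22 around a median of -0.05. Mef2, a muscle master regulator, had 46.4 and 46.7 CPM with Twist guides and 39.1 and 41.8 CPM with both pools (-0.21 ± 0.08, adjusted p = 0.13). zfh1, a mesodermal zinc-finger homeobox gene, had 327 and 325 CPM and then 304 and 276 CPM (-0.17 ± 0.07, adjusted p = 0.12). The ligand gene fog, with 64.3 and 63.5 CPM and then 68.2 and 68.1 CPM, had a value of 0.09 ± 0.07 (adjusted p = 0.46). how, which encodes an RNA-binding protein of muscle, had a value of -0.06 ± 0.07 (adjusted p = 0.59).

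Of 13 genes that Snail is known to keep off in the embryo, 7 were tested. 3 were higher with both pools and 1 lower (1 and 0 with DESeq2 and in the fit of 8 libraries), and the median was 0.05. With DESeq2, vn, sog and shg were not called (adjusted p 0.18, 0.17 and 0.12). The 3 were pyr, above, vn and sog. vn, which encodes the neuregulin-like EGF receptor ligand Vein, had 13 and 12.9 CPM with Twist guides and 17.7 and 18 CPM with both pools (0.46 ± 0.12, adjusted p = 0.034). sog, an inhibitor of BMP signalling, had 1.91 and 1.25 CPM and then 4.67 and 2.59 CPM (1.21 ± 0.35, adjusted p = 0.046).

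The one gene of this list that fell was shg, which encodes E-cadherin. It had 22.6 and 28.2 CPM with Twist guides and 19.7 and 16.9 CPM with both pools (-0.47 ± 0.13, adjusted p = 0.04). crb (-0.27 ± 0.09, adjusted p = 0.088) and brk (0.05 ± 0.08, adjusted p = 0.76) were not called. pyr alone was called with every library left out. vn, sog and shg lost their calls without combined replicate 1 (adjusted p 0.078 to 0.41) or 2 (0.093 to 0.34), and sog and shg also without Twist replicate 2 (0.15 to 0.21).

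Among the Snail family and the proteins Snail works with, esg was joined by 1 gene that fell. CG17181, whose current symbol is Kah and which encodes another zinc-finger protein of the family, had 48.3 and 39.8 CPM with Twist guides and 30.9 and 30.1 CPM with both pools (-0.53 ± 0.10, adjusted p = 0.01). Its call was lost without combined replicate 1 (adjusted p = 0.05, just past the threshold) or 2 (0.11). The corepressor gene CtBP had 194 and 184 CPM and then 208 and 216 CPM (0.16 ± 0.06, adjusted p = 0.12), ebi had a value of -0.16 ± 0.07 (adjusted p = 0.15), and gro was at 0. The family members wor and scrt had at most 1 count in any library and were not tested.

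In FGF and EGF receptor signalling 21 of 26 genes were tested, 3 were higher and 2 lower by edgeR, and the median was -0.04. DESeq2, which did not call vn, had 2 higher and 2 lower, and the fit of 8 libraries 1 and 0. The risers were the ligand genes pyr, vn and bnl. bnl, which encodes the FGF ligand Branchless, had 110 and 99.9 CPM with Twist guides and 132 and 129 CPM with both pools (0.31 ± 0.07, adjusted p = 0.019). The fallers were 2 inhibitors, argos, a secreted antagonist of the EGF receptor, with 134 and 150 CPM and then 117 and 99.6 CPM (-0.40 ± 0.09, adjusted p = 0.018), and sty (Sprouty), at -0.24. Of pyr, vn, bnl and argos, only pyr was called with each library left out. Without combined replicate 2 the other 3 lost their calls (adjusted p 0.17 to 0.29), without combined replicate 1 bnl and vn did (0.099 to 0.14), and without Twist replicate 2 bnl did (0.058).

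Genes of cell adhesion and the extracellular matrix were next. Of 24 tested genes of epithelial junctions and polarity, 0 were higher and 2 lower by edgeR (0 of either with DESeq2, and 4 higher and 3 lower at an unadjusted p under 0.05), around a median of -0.01. The 2 were shg and l(2)gl, a regulator of basal polarity, which had 152 and 168 CPM and then 135 and 134 CPM (-0.26 ± 0.07, adjusted p = 0.037). Both lost their calls without Twist replicate 2 (adjusted p 0.21 to 0.23), combined replicate 1 (0.078 to 0.15) or combined replicate 2 (0.3 to 0.34).

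Of 26 tested genes for basement membrane, integrins and matrix proteases, 0 were higher and 5 lower by edgeR and by DESeq2 (1 and 8 at an unadjusted p under 0.05), around a median of -0.04. Mmp1, a secreted matrix metalloprotease, had 112 and 108 CPM with Twist guides and 74.2 and 76.2 CPM with both pools (-0.55 ± 0.07, adjusted p = 0.00078). Mmp2, the membrane-anchored one, had 103 and 137 CPM and then 74.2 and 72.6 CPM (-0.72 ± 0.12, adjusted p = 0.015). Both proteases were thus lower in both combined libraries. Tig, the integrin ligand Tiggrin, had 50.2 and 58.9 CPM and then 39 and 32.8 CPM (-0.60 ± 0.10, adjusted p = 0.007), and LanB1, a laminin subunit, fell by 0.30 ± 0.08. betaInt-nu was the fifth. Mmp1 was called with each library left out. Without combined replicate 2, Mmp2, Tig and LanB1 lost their calls (adjusted p 0.1 to 0.39), and Mmp2 also did without combined replicate 1 (0.15).

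Among 15 genes of apical constriction, the cell shape change that folds the mesoderm inward, RhoGEF2 was higher and ena lower, and the median was 0. RhoGEF2 had 370 and 312 CPM with Twist guides and 409 and 412 CPM with both pools (0.26 ± 0.08, adjusted p = 0.045). ena, a promoter of actin filament growth, had 288 and 347 CPM and then 238 and 209 CPM (-0.51 ± 0.10, adjusted p = 0.015). RhoGEF2 lost its call with scaling to library size alone, and both lost it without combined replicate 2 (adjusted p 0.2 to 0.31). RhoGEF2 also lost it without Twist replicate 2 (0.27) or combined replicate 1 (0.17).

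**Figure D5:**
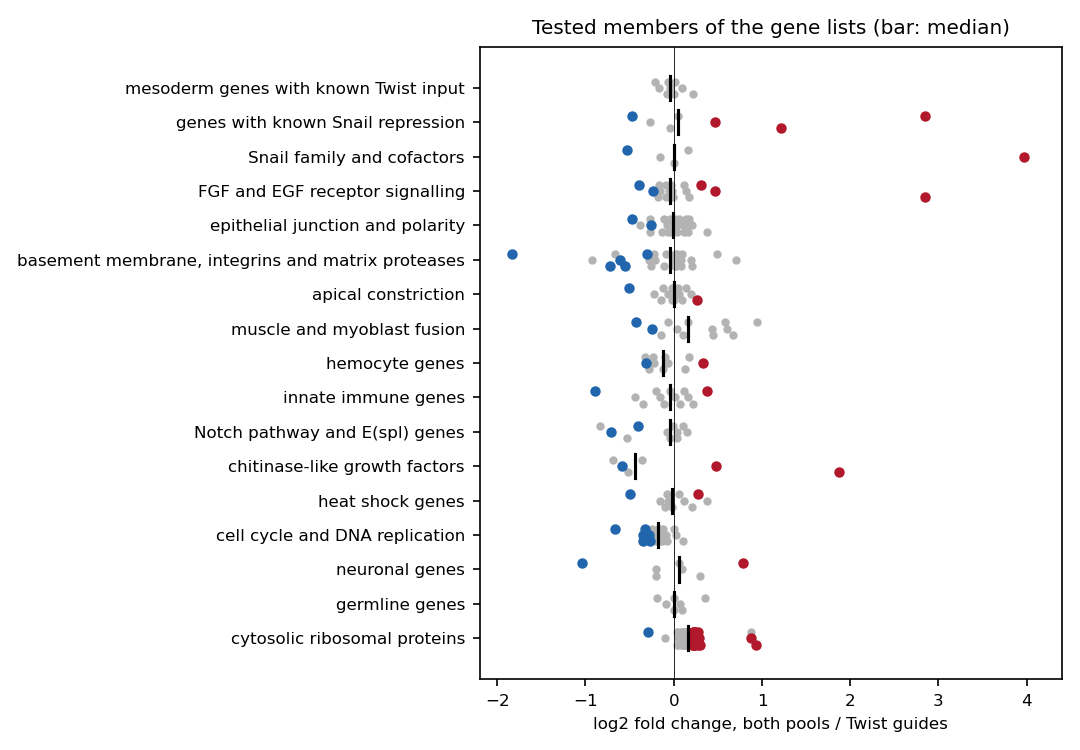
Log2 fold change between both pools and Twist guides (horizontal axis) for the tested members of 17 gene lists, 1 point per gene, red if called higher, blue if called lower and grey if not called, with a bar at each list's median. Medians lie within 0.2 of 0 for every list except the chitinase-like growth factors, the ribosomal proteins cluster just above 0, and single genes such as esg, pyr and betaInt-nu lie far out.

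Cell type lists were small, and the share of tested members called was 15.4% for muscle, 18.2% for hemocyte, 28.6% for neuronal and 0% for germline genes. Of 13 tested muscle and myoblast fusion genes, 0 were higher and 2 lower by edgeR and by DESeq2 (3 and 3 at an unadjusted p under 0.05), tmod and Zasp52, a protein of the muscle Z disc (55.1 and 60.4 CPM and then 41.6 and 44.8 CPM; -0.42 ± 0.09, adjusted p = 0.012). Their median was 0.16, and Mlp84B (0.94 ± 0.37, adjusted p = 0.12) and kon (0.58 ± 0.26, adjusted p = 0.16) were not called. Of 11 tested hemocyte genes, the complement-like TepIV was higher (401 and 374 CPM and then 478 and 495 CPM; 0.33 ± 0.06, adjusted p = 0.011). ush, a cofactor of GATA factors in blood cell fate, was lower (115 and 135 CPM and then 108 and 93.2 CPM; -0.32 ± 0.09, adjusted p = 0.049), and the median was -0.13. The calls of all 4 of these genes were lost without combined replicate 1 or without combined replicate 2 (adjusted p 0.052 to 0.4), and that of ush also without Twist replicate 2 (0.23).

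Of 13 tested innate immune genes, pirk, an inhibitor of the Imd pathway, was higher (57 and 55.6 CPM and then 66.7 and 79.9 CPM; 0.38 ± 0.09, adjusted p = 0.023) and PGRP-LB, a further inhibitor of that pathway, was lower. Both calls were lost without combined replicate 2 (adjusted p 0.088 to 0.34). Of 7 tested neuronal genes, brp, which builds presynaptic active zones, was higher (4.96 and 3.45 CPM and then 8.17 and 6.28 CPM; 0.79 ± 0.23, adjusted p = 0.047) and acj6 lower. Neither was called with DESeq2 (adjusted p 0.18 and 0.13) or in the fit of 8 libraries (0.12 and 0.13). Both of these lost their calls without combined replicate 1 (0.076 to 0.31) or 2 (0.18 to 0.31), and brp without Twist replicate 2 (0.2). Of 7 tested germline genes none was called by edgeR (0 higher and 1 lower at an unadjusted p under 0.05, 0 with DESeq2 and in the fit of 8 libraries, and 1 lower without Twist replicate 1). The summed level of the 4 neuronal markers, scaled by the library total alone, was 13.8 and 13.6 per 1e+06 counts with Twist guides and 17.8 and 16.3 with both pools. Without brp, which is one of them, the sum was 8.83 and 10 with Twist guides and 9.82 and 10.1 with both pools.

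In the Notch pathway and the E(spl) complex 11 of 21 genes were tested, 0 were higher and 2 lower by edgeR (0 and 1 with DESeq2, 0 and 2 at an unadjusted p under 0.05), around a median of -0.05. neur, a ubiquitin ligase that activates the ligand Delta, had 47.3 and 51.8 CPM and then 37.5 and 37.2 CPM (-0.41 ± 0.09, adjusted p = 0.015). HLHmbeta, a repressor that Notch turns on, had 11.8 and 16.8 CPM and then 9.17 and 8.32 CPM (-0.71 ± 0.18, adjusted p = 0.031). Both calls were lost without combined replicate 1 (adjusted p 0.074 to 0.11) or 2 (0.17 to 0.3), and that of HLHmbeta also without Twist replicate 2 (0.17).

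Genes of growth and division followed. Of 21 cell cycle and DNA replication genes, all tested, 0 were higher and 6 lower, 2 had a log2 fold change above 0, and the median was -0.18. DESeq2 called 0 higher and 3 lower, and at an unadjusted p under 0.05 the counts with edgeR were 0 and 11. Over all 7953 tested genes, 2105 lay under that unadjusted p in either direction. stg, the Cdc25 phosphatase that triggers mitosis, had 92.8 and 110 CPM with Twist guides and 71 and 57 CPM with both pools (-0.67 ± 0.11, adjusted p = 0.01). The replicative helicase genes Mcm7 (-0.35), Mcm5 (-0.32) and Mcm3 (-0.27), dup, the fly Cdt1 (-0.35), and CycE (-0.28) were the others. With Twist replicate 1, Twist replicate 2, combined replicate 1 or combined replicate 2 left out, the number lower was 9, 2, 3 and 0, and it was 0 in the fit of 8 libraries.

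Of 84 tested cytosolic ribosomal protein genes, 18 were higher and 1 lower, 82 had a log2 fold change above 0, and the median was 0.16. RpS12 had 1178 and 1071 CPM with Twist guides and 1374 and 1368 CPM with both pools (0.28 ± 0.06, adjusted p = 0.02). Most of the calls were of this size, from 0.21 to 0.30. RpS19b and RpS5b, duplicates of ribosomal protein genes that are best known from the germline, had larger values of 0.93 ± 0.15 and 0.88 ± 0.25. The 1 gene lower was RpLP0-like, named for its likeness to a ribosomal protein. RpS14a has a near-identical neighbouring copy, so its reads may have been split. The number higher was 49, 3, 0 and 0 with Twist replicate 1, Twist replicate 2, combined replicate 1 or combined replicate 2 left out, 0 in the fit of 8 libraries and 25 with DESeq2. Within the groups the list also moved, with a median of -0.09 from Twist replicate 1 to 2 and 0.03 from combined replicate 1 to 2.

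The 6 chitinase-like growth factor genes were split. Idgf4 rose, as did Chit (current symbol Idgf6), with 408 and 377 CPM with Twist guides and 585 and 514 CPM with both pools (0.48 ± 0.07, adjusted p = 0.0031). Idgf3 fell from 100 and 121 CPM to 77.1 and 69.7 CPM (-0.59 ± 0.09, adjusted p = 0.0053). Idgf2, at -0.52 ± 0.26, was not called (adjusted p = 0.24). Chit was called with each library left out, while Idgf3 and Idgf4 were lost without combined replicate 2 (adjusted p 0.06 to 0.098). Of 11 tested heat shock genes, Hsc70-3, the chaperone BiP of the endoplasmic reticulum, rose by 0.27 ± 0.07, and Hsp23, a small heat shock protein, fell from 95.3 and 111 CPM to 68.7 and 78.4 CPM (-0.49 ± 0.09, adjusted p = 0.01). Both calls were lost without combined replicate 1 (0.074 to 0.14), and that of Hsc70-3 also without combined replicate 2 (0.23) or Twist replicate 2 (0.12).

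Fewer members were called in the fit of 8 libraries. It called pyr alone, higher, in the list of Snail repression and in that of FGF and EGF receptor signalling. It called esg higher and CG17181 lower in the Snail family list, Idgf4 higher and Idgf3 lower among the chitinase-like growth factors, and PGRP-LB lower among the innate immune genes. In the matrix list it called Mmp1 and BM-40-SPARC, a collagen-binding protein of basement membranes, both lower, and in the remaining 11 lists it called none. BM-40-SPARC, named after its values were seen, had 547 and 788 CPM with Twist guides and 381 and 326 CPM with both pools, and did not pass in the fit of 4 libraries (-0.92 ± 0.24, adjusted p = 0.13).

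Near twi, the nearest tested gene on the side of lower coordinates, CG42694 at 40.2 kb, had 1.75 and 2.87 CPM and then 1.83 and 1.76 CPM (-0.37 ± 0.34, adjusted p = 0.52). CG9896 lies within the annotated span of twi, and no source used here gives the strand setting of the counting, so reads from overlapping genes may not have been separated. It had 9.3 and 3.31 CPM with Twist guides and 11.6 and 13.3 CPM with both pools (0.98 ± 0.46, adjusted p = 0.27). The groups did not overlap, but the Twist libraries lay far apart. CG42741, noted after its values were seen, lies within the same span and was read 0 times in the control and Snail libraries. It had 0.61 and 0.514 CPM with Twist guides and 1.25 and 1.02 CPM with both pools (1.00 ± 0.47, adjusted p = 0.19).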

How the data were processed

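Per the labels, TRIZOL-extracted total RNA, treated with DNase during column cleanup, went into Illumina mRNA libraries. The deposited values are raw counts of reads per gene symbol, 1 table per library. Per the submitters' processing notes, the authors' tools were TopHat2 (version 2), Bowtie2, HTSeq and DESeq. Their genome build and annotation, the strand option and the mode of counting are not given here by any source used. Total counts were 10752993 to 13351166 over the 8 libraries, and every row of the tables names a gene.

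Gene identifiers, positions and lengths came from Ensembl 115 (BDGP6.54), matched by symbol: 10669 symbols were current, 3236 older and 256 not matched.

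The 4 compared libraries were fitted with edgeR 4.0.16 (R 4.3.3, with limma 3.58.1), using TMM factors, filterByExpr with a minimum count of 10 (7953 genes kept, at least 99.93% of the counts), a robust quasi-likelihood fit (2 residual degrees of freedom, median prior 12.1), F tests and Benjamini-Hochberg adjustment at 0.05. Comparisons with control guides, and the difference between the additions of Snail guides, came from a fit of all 8 libraries (8029 genes, 4 residual degrees of freedom). Levels are CPM with the TMM factors of that fit, except sums of markers, which are scaled by the library total alone. The series calls the libraries biological replicates, and p-values measure only the spread between them. A lone library was assumed to vary like the other group. Counting intervals are exact, at 95%, and cover counting error only. Plots were drawn with matplotlib 3.10.9.

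Named are twi and sna, the 15 largest rises and falls among genes called, not overlapping and at a mean of 1 CPM or more, up to 4 genes per list with the smallest p, the genes called with Snail guides against control, the 10 largest rises with Twist guides, and the neighbours of the targets. Other named genes are said to be so. A gene can belong to several lists. The members, lists and settings were chosen with earlier results of these data known. One item is not reported here. Planned counts of promoter motifs were not made, since no genome sequence was used here.

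The settings varied were size factors of DESeq2 type, library size alone, the filter (none, or at least 1 CPM in 2 libraries), DESeq2 1.42.0, an FDR of 0.01, fits of 8 and of 6 libraries, the replicate number as a block, an offset for transcript length (lowess span 0.3, for the 98.7% of tested genes with a length), and each library left out.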

Additional observations from a re-analysis of the deposited data

Results flagged for a closer look

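The additions of Snail guides, with and without Twist guides, were compared by an interaction term in edgeR's quasi-likelihood fit of all 8 libraries, and 4 of the genes named above passed with Benjamini-Hochberg adjustment. The value given is the log2 fold change of both pools over Twist guides minus that of Snail guides over control guides. The control libraries lay farther apart than those of any other group (variance of their difference 28.5 times that of counting).

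For htl the value was -2.74 ± 0.31 (SE; adjusted p = 0.0059), from -0.04 with Twist guides and 2.70 without. It was called with each of the 8 libraries left out in turn, at -2.34 to -3.31. For sano it was -1.19 ± 0.15 (adjusted p = 0.013), from -0.49 and 0.70. For btn it was -2.37 ± 0.41 (adjusted p = 0.043), from -1.91 and 0.47. For CG3860 it was 0.90 ± 0.15 (adjusted p = 0.036), from 0.34 and -0.56. In sano and btn 5 of the 8 libraries ended the call when left out, namely both Snail libraries, both combined libraries and Twist replicate 2 (adjusted p 0.088 to 0.28), and in CG3860 Twist replicate 1 did so as well (0.051 to 0.28).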

How the results depend on the processing

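The 710 calls (329 higher, 381 lower) kept their direction in every setting that tested them, except 1 gene without combined replicate 1. Their number moved to 1235 (543 and 692) without a filter, 414 (190 and 224) with DESeq2, 81 (37 and 44) at an FDR of 0.01 and 84 (40 and 44) with all 8 libraries. With each library left out in turn it ran from 40 to 1930 (22 to 949 higher, 18 to 981 lower). Scaling to library size alone changed the share called higher from 46.3% to 33.2% (254 higher, 512 lower) and shifted the median of all genes from 0.0048 to -0.025. twi ran from -1.11 to -0.99 on the log2 scale, and twi and sna were called in every setting. Calls of Snail guides against control ranged from 6 to 1443, and those of the difference between the additions from 1 to 948, with a library left out.

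Replicate numbers of the libraries were not shown to pair them, since only 2 pairs exist and their deviations had a correlation of -0.09 across genes. The difference of replicate 2 from replicate 1 did run with transcript length in the same direction in both groups. Its Spearman correlation was -0.19 with Twist guides and -0.18 with both pools. With the replicate block 291 genes were called (124 higher, 167 lower), and with the block and the transcript length offset 457 (188 and 269). The cause was not tested.

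Among named genes and neighbours, signs changed only in genes not called. With a library left out, htl ran from -0.17 to 0.06, if from -0.21 to 0.28, CG5895 from -0.08 to 0.01, CG5118 from -0.03 to 0.02, Spn from -0.09 to 0.05, Cp1 from -0.06 to 0.12 and CG42694 from -0.68 to 0.04. if was also at -0.01 with library size alone and both length offsets, CG5118 at 0 with 6 libraries and 0.01 with both length offsets, and Cp1 at 0 with library size alone. Since 3 counts equal 0.22 to 0.277 CPM in the 4 libraries, levels near 1 CPM carry wide counting error.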

Other observations

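Energy metabolism and the mitochondrion were in no list above, and the families here were taken by symbol after values had been seen. Of 62 tested nuclear genes for subunits of oxidative phosphorylation, 0 were higher and 13 lower with both pools, 57 had a log2 fold change below 0, and the median was -0.18, beside 0.0048 over all tested genes and 4.79% of genes called lower. ATPsynC, of the ATP synthase ring, was at -0.42 ± 0.07 (adjusted p = 0.0053) and COX4, of cytochrome c oxidase, at -0.34 ± 0.07 (adjusted p = 0.011). Of 72 genes for mitochondrial ribosomal proteins, 8 were lower and 0 higher, with a median of -0.17. Of the 8 CCT chaperonin subunits, which fold actin and tubulin, 5 were lower and 0 higher, with a median of -0.26. Of 12 glycolytic enzymes, 4 were higher and 0 lower, with a median of 0.14. These were Pfk (0.30), Hex-A (0.31), ImpL3, the lactate dehydrogenase (0.44), and Pgi (0.25). The share of all tested genes called higher was 4.14%.

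The counts of these families moved with single libraries, given here in the order without Twist replicate 1, Twist replicate 2, combined replicate 1 and combined replicate 2. The number lower was 36, 4, 3 and 0 for oxidative phosphorylation, 28, 0, 0 and 0 for mitochondrial ribosomal proteins and 7, 1, 1 and 0 for CCT subunits, and the number of glycolytic enzymes higher was 6, 1, 0 and 0. In the fit of 8 libraries these counts were 1, 0, 0 and 0, and with DESeq2 they were 9, 1, 5 and 2.

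Of 6 tested clock genes, 3 were higher and 0 lower by edgeR, but 1 was higher with DESeq2, in the fit of 8 libraries and without Twist replicate 2 or either combined replicate. vri, a repressor within the clock, had 102 and 83.6 CPM with Twist guides and 141 and 151 CPM with both pools (0.65 ± 0.09, adjusted p = 0.0017 in edgeR's quasi-likelihood test) and was called in every setting tried. The others were tim (2.25, adjusted p = 0.016) and cwo (0.22, adjusted p = 0.05, just within the threshold). With size factors of DESeq2 type, 2 clock genes were higher. Over all tested genes, 4.14% were called higher. Pdp1 was at -0.24 (adjusted p = 0.052) and cyc at 0.13.

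Some genes had large differences that were not called, with Twist replicate 2 far above the other libraries. CG16758 had 17 and 134 counts with Twist guides, 0 and 2 with both pools, 11 and 11 with Snail guides and 5 and 25 in control libraries (adjusted p = 0.33). sda had 158 and 595 counts with Twist guides and 69 and 51 with both pools (adjusted p = 0.35).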
